A study of Mus musculus with 8 samples.

Results

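The 42 genes described here encode nucleolar ribosome biogenesis factors, the proteins that transcribe, modify, cut and fold ribosomal RNA and assemble it into ribosomal subunits. They are a list of gene symbols with no threshold on measured values, drawn up with earlier results of these data known, and all 42 were found among the 20660 gene symbols on the array. Their transcripts were measured in primary spheres grown from a sympathetic ganglion, the superior mesenteric, of TH-MYCN hemizygous mice aged 3 weeks on the 129+Ter/SvJcl background. In these mice a tyrosine hydroxylase promoter drives human MYCN in sympathetic cells, and the animals develop neuroblastoma. Dissociated cells of each of 4 animals were divided between retinoic acid (RA)-free medium and RA-containing medium and gave spheres over 8 days, so that 4 RA-free arrays stood against 4 RA-containing arrays, and every group carried the transgene.

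Ribosomal RNA is transcribed by RNA polymerase I in the nucleolus. The precursor is bound while it is made by small nucleolar ribonucleoproteins (snoRNPs), which methylate it (box C/D) or convert uridine to pseudouridine (box H/ACA), and by the small subunit processome, while large subunit precursors form on its other end. MYC family proteins are known activators of genes of this pathway, and nucleolar enlargement is a known feature of MYCN-driven neuroblastoma cells. Levels are log2 intensities minus the array's 75th percentile, changes are RA-free minus RA-containing, and a gene is called where the adjusted p of the limma fit over all 13539 tested genes, with the animal as a block, was under 0.05. Because a probe's brightness depends on its sequence, levels are compared between arrays and not between genes.

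Transcripts of these factors were more abundant in RA-free spheres. Of the 42 genes, 40 were higher in RA-free than in RA-containing spheres, none was lower, and Ddx10 and Nop14 did not pass the test. Among all tested genes, 36.1% were called higher and 28.2% were called lower, 64.3% in all. The median change of the 42 was 0.69 on the log2 scale, a 1.61-fold difference, and the changes ran from 0.17 for Nop14 to 1.16 for Nop58, whereas the median over all tested genes was 0.07. All 42 were well above background on all 8 arrays. For 38 of the 42 the lowest RA-free array lay above the highest RA-containing array, a separation seen in 29.5% of tested genes, and the media overlapped for Pes1, Polr1b, Rrp12 and Nop14.

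**Figure D1:**
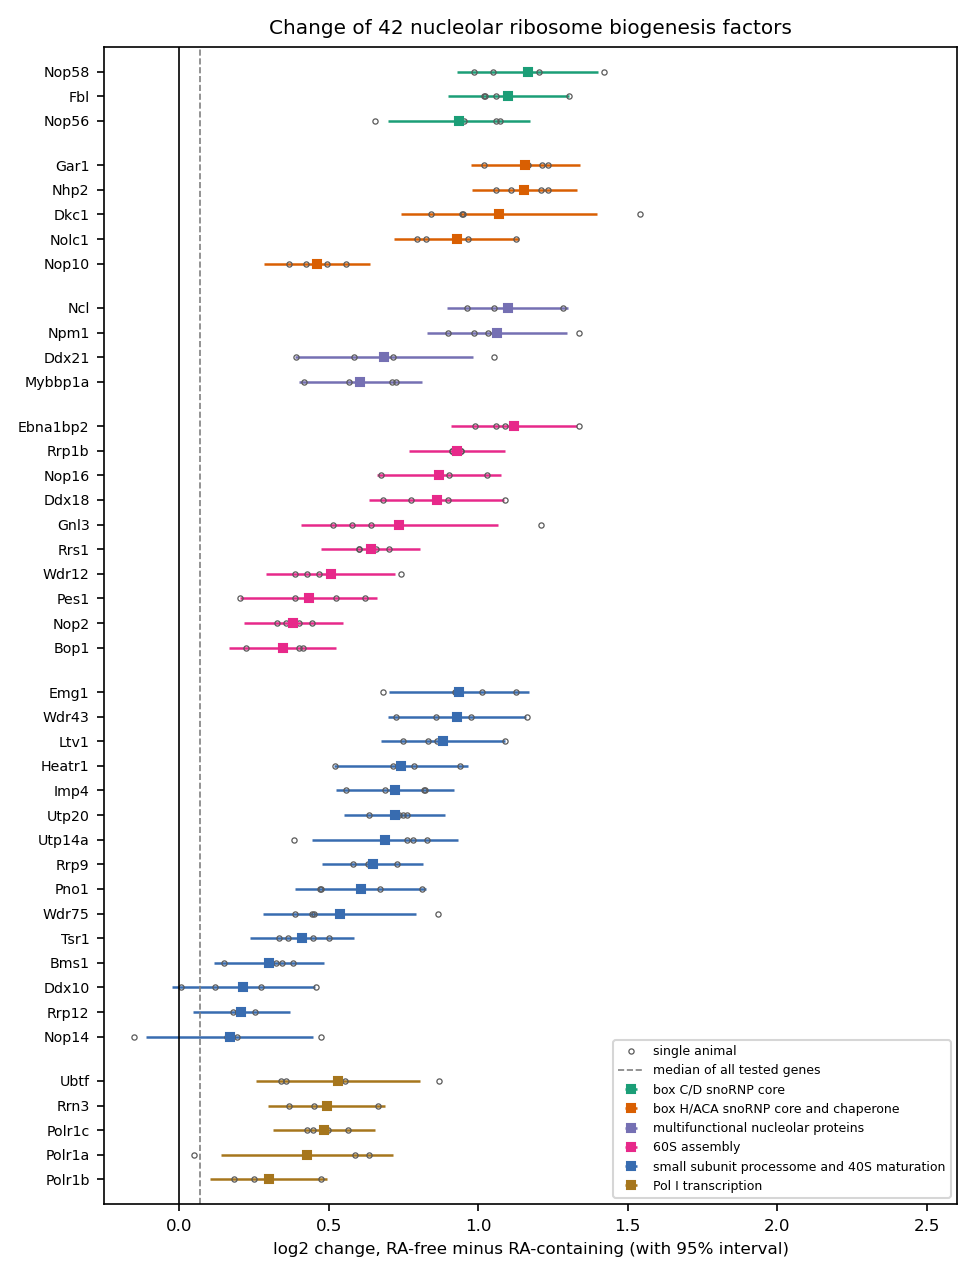
Log2 change, RA-free minus RA-containing, of the 42 genes by role; squares are the fitted change with its 95% interval, circles are single animals and the dashed line is the median of all tested genes at 0.07. The changes run from 0.17 for Nop14 to 1.16 for Nop58, and the intervals of Ddx10 and Nop14 are the ones that reach 0.

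The direction was shared by the animals. In animals 1 to 4 the median change of the 42 was 0.67, 0.67, 0.83 and 0.59, and 42, 41, 42 and 42 of them were higher without RA. Nop14 in animal 2 was the exception. Set against each gene's own mean over the 8 arrays, the median level of the 42 was 0.24, 0.39, 0.46 and 0.32 on RA-free arrays 1 to 4, against -0.36, -0.28, -0.38 and -0.34 on RA-containing arrays 1 to 4. The media therefore did not overlap in this median, and RA-free array 1 was the lowest of its medium.

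**Figure D2:**
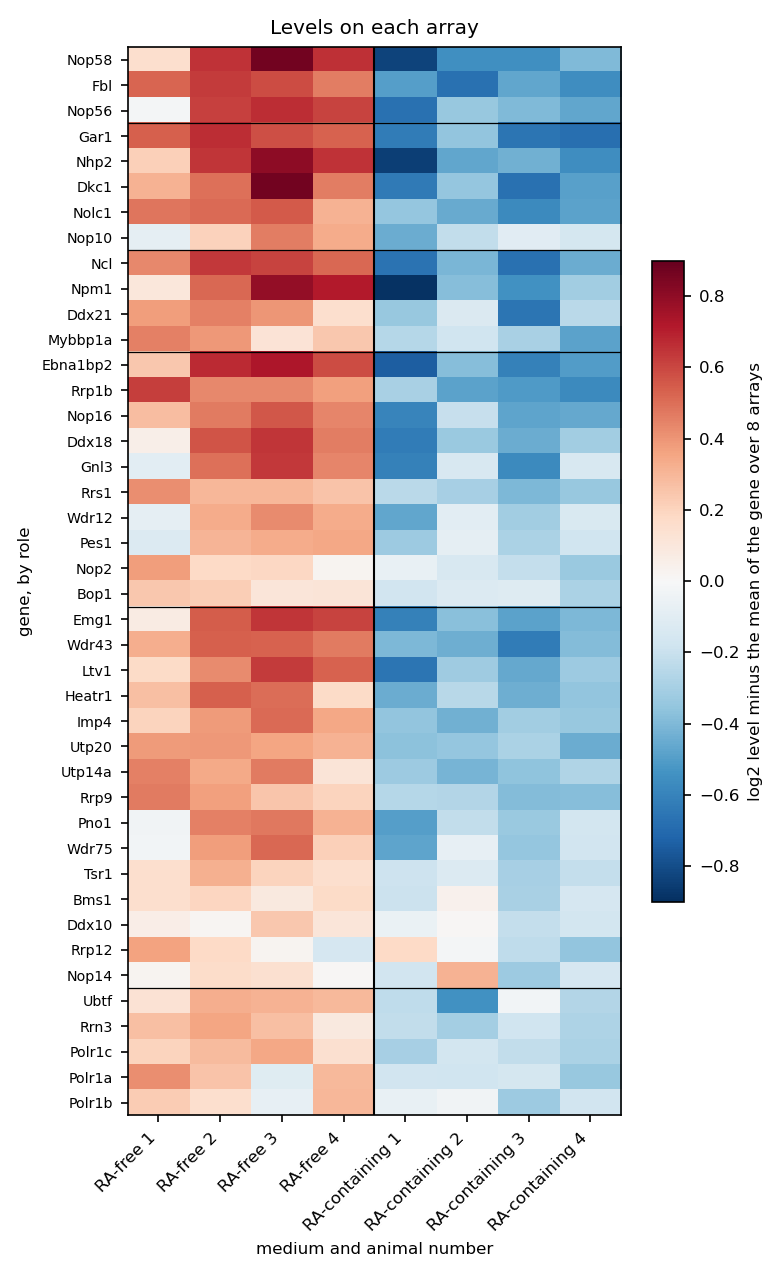
Log2 level of each of the 42 genes on each array minus the mean of that gene over the 8 arrays, with RA-free arrays on the left and RA-containing arrays on the right and genes in order of role. The median of the column is 0.24 to 0.46 on the RA-free arrays and -0.38 to -0.28 on the RA-containing arrays.

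The core proteins of the box C/D snoRNPs, which guide methylation of ribosomal RNA, were among the most changed, and all 3 were higher without RA. Nop58, a scaffold protein that binds the guide RNA together with Nop56 (NM_018868), had levels of 5.21, 5.70, 5.92 and 5.71 on RA-free arrays 1 to 4, against 4.22, 4.50, 4.50 and 4.66 on RA-containing arrays 1 to 4. Every RA-free array was above every RA-containing array, and the fitted change was 1.16 (SE 0.10, adjusted p = 0.000273, limma), or 2.24-fold with a 95% interval of 1.90 to 2.64. Fbl, fibrillarin, the methyltransferase of the particle (NM_007991), had levels of 5.44, 5.54, 5.50 and 5.37 in RA-free spheres, against 4.41, 4.24, 4.44 and 4.35 in RA-containing spheres. Its arrays lay close together within each medium (SD 0.08 RA-free and 0.09 RA-containing, n = 4 each), and the change was 1.10 (SE 0.08, adjusted p = 0.000202). Nop56 (NM_024193) had levels of 6.59, 7.22, 7.27 and 7.22 in RA-free spheres, against 5.94, 6.27, 6.21 and 6.15 in RA-containing spheres, a change of 0.93 (SE 0.10, adjusted p = 0.000559). Animal 1 had the smallest Nop56 change, 0.65, against 0.95 to 1.07 in the other animals, and the fitted change was 0.52 after quantile normalization and 0.50 after normexp with quantile normalization, both still called.

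The box H/ACA core is built from Dkc1, the pseudouridine synthase dyskerin, with Gar1, Nhp2 and Nop10, and the same proteins are part of the telomerase particle. All 4, and Nolc1, a chaperone that shuttles between nucleolus and cytoplasm and binds snoRNPs, were higher without RA. Gar1 (NM_026578) had levels of 4.91, 5.04, 4.95 and 4.91 on RA-free arrays, against 3.74, 4.02, 3.72 and 3.69 on RA-containing arrays. Its changes of 1.02 to 1.23 in the 4 animals differed little, and the fitted change was 1.16 (SE 0.07, adjusted p = 0.000137), or 2.23-fold. Nhp2 (NM_026631) had levels of 6.57, 7.00, 7.17 and 7.01 in RA-free spheres, against 5.51, 5.89, 5.93 and 5.80 in RA-containing spheres, a change of 1.15 (SE 0.07, adjusted p = 0.000126) that was 0.76 after quantile normalization. Dkc1 (NM_001030307) had levels of 0.68, 0.87, 1.24 and 0.83 in RA-free spheres, against -0.26, 0.02, -0.30 and -0.12 in RA-containing spheres. Its change of 1.07 (SE 0.13, adjusted p = 0.00108) was less even, with 1.54 in animal 3 and 0.84 to 0.95 in the others. Nolc1 averaged 3.42 ± 0.10 in RA-free and 2.49 ± 0.09 in RA-containing spheres (SD, n = 4 each), a change of 0.93.

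Nop10, the smallest protein of the H/ACA core (NM_025403), changed less than its partners. It had levels of 5.03, 5.32, 5.57 and 5.45 on RA-free arrays, against 4.67, 4.89, 5.01 and 4.95 on RA-containing arrays, which did not overlap, and its change was 0.46 (SE 0.07, adjusted p = 0.00245), or 1.38-fold. In animals 1 to 4 its change minus the mean change of Dkc1, Gar1 and Nhp2 was -0.69, -0.57, -0.78 and -0.63, with a mean of -0.67 ± 0.09 (SD, n = 4 animals). Nop10 was picked for this difference after its values were seen, so the difference carries no test. Quantile normalization left Nop10 at 0.14 with an adjusted p of 0.0957 by limma, and normexp with quantile normalization at 0.15 with an adjusted p of 0.0614, and neither passed.

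The 5 genes of ribosomal RNA transcription among the 42 were all called higher, with changes of 0.30 to 0.53 and a median of 0.48, and 28 of the other 37 changes lay above that median, a description with no test of the difference. Ubtf, the factor that binds ribosomal DNA and keeps it open for transcription (NM_011551), had levels of 7.55, 7.75, 7.74 and 7.71 in RA-free spheres, against 7.20, 6.88, 7.40 and 7.16 in RA-containing spheres, a change of 0.53 (SE 0.11, adjusted p = 0.00758). The media did not overlap, while single animals ranged from 0.34 to 0.87. Rrn3, which brings polymerase I to the promoter, had levels of 4.59, 4.68, 4.59 and 4.41 in RA-free spheres, against 4.10, 4.01, 4.14 and 4.04 in RA-containing spheres, a change of 0.49 (SE 0.08, adjusted p = 0.00279) that was 0.29 after quantile normalization. Polr1c, a subunit shared by polymerases I and III, had levels of 3.39, 3.48, 3.54 and 3.34 in RA-free spheres, against 2.89, 3.03, 2.97 and 2.91 in RA-containing spheres, a change of 0.48 (SE 0.07, adjusted p = 0.00174).

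The catalytic subunits were called higher in the comparison of all 4 animals, and not without some of them. Polr1a, the largest subunit, had levels of 2.97, 2.81, 2.45 and 2.85 in RA-free spheres, against 2.39, 2.38, 2.40 and 2.22 in RA-containing spheres, a change of 0.43 (SE 0.12, adjusted p = 0.0206) that was 0.05 in animal 3 and 0.43 to 0.63 in the others. The adjusted p of Polr1a in limma was 0.0701 without animal 1, 0.0673 without animal 2 and 0.0809 without animal 4. Polr1b, the second-largest subunit, had levels of 0.72, 0.65, 0.42 and 0.79 in RA-free spheres, against 0.43, 0.46, 0.17 and 0.32 in RA-containing spheres. RA-free array 3 lay inside the RA-containing range, and the change was 0.30 (SE 0.08, adjusted p = 0.0180), with an adjusted p of 0.0542 without animal 1 and 0.0836 without animal 4. Ubtf had a further tested probe with a change of 0.23 that did not pass (adjusted p = 0.125 over all named probes), and its main probe was at 0.09 (adjusted p = 0.544) after quantile normalization and at 0.08 (adjusted p = 0.570) after normexp with quantile normalization. The median of the 5 was 0.29 under both of these scalings, and under spike-in scaling, at a median of 0.63, none of the 5 passed the limma test.

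The small subunit processome and later small subunit maturation were covered by 15 genes, of which 13 were higher without RA, with a median change of 0.65 over the 15. Emg1, a methyltransferase that acts on small subunit RNA, had levels of 2.44, 2.91, 3.02 and 2.98 on RA-free arrays, against 1.76, 1.99, 1.89 and 1.96 on RA-containing arrays, a change of 0.94 (SE 0.09, adjusted p = 0.000525). Wdr43, a processome protein that loads early on the precursor, had levels of 1.78, 1.99, 1.99 and 1.92 in RA-free spheres, against 1.05, 1.02, 0.82 and 1.06 in RA-containing spheres, a change of 0.93 (SE 0.09, adjusted p = 0.000516). Utp20, a large scaffold protein, had levels of 0.37, 0.38, 0.34 and 0.30 in RA-free spheres, against -0.38, -0.36, -0.30 and -0.46 in RA-containing spheres. Its 4 RA-free arrays spanned less than 0.1, so that a change of 0.72 (SE 0.07, adjusted p = 0.000428) stood far outside the spread. The early factors Heatr1, Imp4, Utp14a, Rrp9 and Wdr75 changed by 0.54 to 0.74, with no overlap between the media.

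Ltv1, Pno1, Tsr1 and Rrp12, which act later on the small subunit, changed by 0.21 to 0.88. Ltv1, a protein that leaves the small subunit precursor late in maturation, averaged 3.87 ± 0.20 in RA-free and 2.99 ± 0.16 in RA-containing spheres, a change of 0.88 (SE 0.08, adjusted p = 0.000437). Pno1, which in yeast binds near the end of the small subunit RNA, changed by 0.61 and Tsr1, a GTPase-like factor, by 0.41. The processome GTPase Bms1 had levels of 0.43, 0.47, 0.37 and 0.45 in RA-free spheres, against 0.08, 0.32, -0.01 and 0.12 in RA-containing spheres, a change of 0.30 (SE 0.07, adjusted p = 0.0147), with an adjusted p of 0.0541 without animal 1 and 0.0642 without animal 4. Rrp12, known from yeast as an export and processing factor, had levels of -0.56, -0.74, -0.89 and -1.08 in RA-free spheres, against -0.74, -0.94, -1.15 and -1.28 in RA-containing spheres. The media overlapped, yet in each animal the RA-free array was higher, by 0.18 to 0.25, and the paired change of 0.21 (SE 0.07) passed with an adjusted p of 0.0340. Without the animal block that p was 0.256, and leaving out animals 1 to 4 in turn gave 0.0841, 0.103, 0.0568 and 0.116, so the Rrp12 call needed every animal.

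Ddx10, an RNA helicase of the processome, and Nop14, a processome scaffold protein, did not pass the test. Ddx10 had levels of 0.23, 0.19, 0.41 and 0.28 in RA-free spheres, against 0.11, 0.18, -0.04 and 0.00 in RA-containing spheres. The difference was 0.22 with a 95% interval of -0.02 to 0.45 (adjusted p = 0.0968, limma), although the media did not overlap. Nop14 had levels of 0.47, 0.61, 0.59 and 0.45 in RA-free spheres, against 0.27, 0.76, 0.12 and 0.29 in RA-containing spheres. RA-containing array 2 was the highest of all 8, and the difference was 0.17 with an interval of -0.11 to 0.45 (adjusted p = 0.235). Both intervals hold 0 and hold values as large as the changes of Polr1a, so an equal level was not shown.

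All 10 factors of large subunit assembly were higher without RA, with a median change of 0.69. Ebna1bp2, whose yeast counterpart acts early in large subunit assembly, had levels of 5.53, 5.96, 6.02 and 5.88 on RA-free arrays, against 4.54, 4.90, 4.68 and 4.79 on RA-containing arrays, a change of 1.12 (SE 0.08, adjusted p = 0.000216). Rrp1b, a nucleolar protein of pre-ribosomal particles, had levels of 0.83, 0.64, 0.64 and 0.57 in RA-free spheres, against -0.08, -0.27, -0.30 and -0.37 in RA-containing spheres. Its change was nearly the same in every animal, 0.91 to 0.94, with a fitted value of 0.93 (SE 0.06, adjusted p = 0.000174). Nop16 and the helicase Ddx18 changed by 0.87 and 0.86, and Rrs1, which in yeast is needed for large subunit RNA processing, by 0.64. Gnl3, nucleostemin, a nucleolar GTPase abundant in dividing stem and tumour cells, had levels of 1.92, 2.51, 2.65 and 2.45 in RA-free spheres, against 1.40, 1.87, 1.44 and 1.87 in RA-containing spheres. Its change of 0.74 (SE 0.13, adjusted p = 0.00448) was 1.21 in animal 3 and 0.52 to 0.64 in the others.

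Pes1, Bop1 and Wdr12 form the PeBoW complex, which is needed to process the large subunit precursor, and all 3 changed by less than the median of the 42. Pes1 had levels of 4.42, 4.85, 4.88 and 4.89 in RA-free spheres, against 4.21, 4.46, 4.26 and 4.36 in RA-containing spheres. RA-free array 1 fell inside the RA-containing range, and the change was 0.43 (SE 0.09, adjusted p = 0.00835). Bop1 had levels of 3.96, 3.94, 3.83 and 3.84 in RA-free spheres, against 3.55, 3.60, 3.61 and 3.44 in RA-containing spheres, a change of 0.35 (SE 0.07, adjusted p = 0.00757). Wdr12 had levels of 1.49, 1.91, 2.00 and 1.91 in RA-free spheres, against 1.11, 1.48, 1.26 and 1.44 in RA-containing spheres, a change of 0.51 (SE 0.09, adjusted p = 0.00366). After quantile normalization Pes1 stood at 0.18 (adjusted p = 0.0947) and Bop1 at 0.19 (adjusted p = 0.0635), both short of the limma threshold. Nop2, a methyltransferase of large subunit RNA known as a proliferation antigen, averaged 4.17 ± 0.15 in RA-free and 3.79 ± 0.11 in RA-containing spheres (SD, n = 4 each), a change of 0.38 that was 0.21 after quantile normalization.

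The abundant nucleolar proteins with several functions were all higher without RA. Ncl, nucleolin, had levels of 6.01, 6.22, 6.19 and 6.10 on RA-free arrays, against 4.92, 5.17, 4.91 and 5.14 on RA-containing arrays, a change of 1.10 (SE 0.08, adjusted p = 0.000204). Npm1, nucleophosmin, a histone and ribosome chaperone, had levels of 7.90, 8.32, 8.59 and 8.51 in RA-free spheres, against 6.91, 7.42, 7.25 and 7.48 in RA-containing spheres. The media were well apart, and the change was 1.06 (SE 0.09, adjusted p = 0.000351), or 2.09-fold, and 0.64 after quantile normalization. Ddx21, a helicase that acts on both polymerase I and polymerase II transcription, changed by 0.69, and Mybbp1a, a nucleolar protein that can bind p53, by 0.61, or 0.35 after quantile normalization. Where a gene had several tested probes, as 12 of the 42 did, none of the probes had the opposite sign. Nucleolin was the gene whose probes differed by over 0.5, at 1.10 and 0.54, whereas the 5 probes of Npm1 ran from 1.06 to 1.45.

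Promoter sequences were available from RefSeq (GRCm38.p6) for 37 of the 42 genes, from 250 bases before to 50 after the annotated start. MYC proteins with their partner Max bind the E-box, so its letters CACGTG, which read the same on both strands, were searched. The E-box was present for 10 of the 37 genes, or 27.0%, against 11.5% of the 10801 tested genes with a promoter. A gene with several promoters counted once, if any of them held it. Counted promoter by promoter, tested gene or not, the share was 7.15% of 32841, which is not on the same footing. The holders were Wdr43, Ltv1, Imp4, Utp20, Pno1, Mybbp1a, Rrn3, Pes1, Tsr1 and Nop2, and 7 of their 11 matches began 2 to 40 bases after the start. Holders had a median change of 0.61 and the 27 genes without a match 0.74, so the holders had the smaller median. To show the letters in context, 5′ to 3′ with CACGTG in capitals, promoters are given for holders of 3 roles, and for Nop58, which changed most and holds none in this window. They are Wdr43 at chr17:71615965-71616264, Nop2 at chr6:125131633-125131932, Rrn3 at chr16:13780449-13780748, Pes1 at chr11:3963725-3964024 and Nop58 at chr1:59684756-59685055, all on the plus strand.
Wdr43: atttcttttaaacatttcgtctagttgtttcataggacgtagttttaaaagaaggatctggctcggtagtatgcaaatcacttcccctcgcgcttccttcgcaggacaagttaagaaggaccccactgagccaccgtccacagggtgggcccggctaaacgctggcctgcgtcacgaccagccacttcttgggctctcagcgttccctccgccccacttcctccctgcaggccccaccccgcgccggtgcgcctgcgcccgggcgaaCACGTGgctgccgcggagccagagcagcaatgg
Nop2: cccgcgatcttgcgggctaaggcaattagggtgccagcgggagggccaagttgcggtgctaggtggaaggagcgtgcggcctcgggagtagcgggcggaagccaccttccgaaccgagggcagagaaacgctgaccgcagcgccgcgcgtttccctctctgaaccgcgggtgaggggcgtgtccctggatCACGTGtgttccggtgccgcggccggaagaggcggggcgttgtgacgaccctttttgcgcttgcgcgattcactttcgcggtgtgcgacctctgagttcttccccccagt
Rrn3: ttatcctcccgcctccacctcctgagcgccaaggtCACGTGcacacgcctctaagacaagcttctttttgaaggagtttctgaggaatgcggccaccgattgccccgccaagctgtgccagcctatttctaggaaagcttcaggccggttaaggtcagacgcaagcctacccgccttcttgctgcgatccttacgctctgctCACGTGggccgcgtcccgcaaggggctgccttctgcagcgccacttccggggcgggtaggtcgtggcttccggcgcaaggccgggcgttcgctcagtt
Pes1: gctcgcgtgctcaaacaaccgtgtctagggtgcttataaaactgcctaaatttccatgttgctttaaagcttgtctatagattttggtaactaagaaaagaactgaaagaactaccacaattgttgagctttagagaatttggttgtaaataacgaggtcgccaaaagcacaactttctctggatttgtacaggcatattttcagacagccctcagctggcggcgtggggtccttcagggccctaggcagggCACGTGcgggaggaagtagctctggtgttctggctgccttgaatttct
Nop58: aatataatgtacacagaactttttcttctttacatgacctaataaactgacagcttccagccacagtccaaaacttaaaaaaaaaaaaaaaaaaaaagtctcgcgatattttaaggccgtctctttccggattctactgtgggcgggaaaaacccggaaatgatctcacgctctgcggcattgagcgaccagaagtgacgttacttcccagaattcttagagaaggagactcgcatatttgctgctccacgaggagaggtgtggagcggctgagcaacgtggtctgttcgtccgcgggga

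Wdr43 and Pes1 carry the E-box just after the start, Nop2 carries it upstream, and Rrn3 carries a pair upstream. Other letters were searched on both strands in the same windows. The core of the ETS site, CCGGAA, was present for 40.5% of the 37 genes against 29.2% of tested genes, and the GC box GGGCGG for 75.7% against 66.6%. TATAAA was present in 5.41% against 9.65%. The palindromic NRF1 site was present for 1 gene, or 2.70% against 2.16%, and a CG-rich palindrome of housekeeping promoters for none, against 1.08%. A match is a run of letters and no measure of binding, and these promoters and motifs were chosen after the changes were known.

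Other genes of the pathway moved in the same direction in most cases. Of 40 other small subunit factors 34 were higher and none was lower, with a median change of 0.54, and the largest were the helicase Ddx52 at 0.95 and Utp11 at 0.89. Of 49 other large subunit factors 38 were higher, with a median of 0.49. Rrp15 changed by 1.49 and Mrto4, a relative of the ribosomal stalk protein, by 1.15, whereas the nucleostemin relative Gnl3l was the single gene called lower, at -0.63 (SE 0.10, adjusted p = 0.00272, limma). The RNA exosome, which trims ribosomal RNA precursors, had 11 of 12 genes higher with a median of 0.74, led by Exosc8 at 1.53 and Exosc6 at 1.28. Among factors that assemble snoRNPs 10 of 12 were higher with a median of 0.62, led by Znhit6 at 1.10 and Shq1, a dyskerin chaperone, at 0.98, while Coil and Nufip1 did not pass. Of the 6 tested host genes of snoRNAs 5 were higher, with a median of 0.47, and Snhg5 and Snhg3 had the largest changes at 0.68 and 0.61.

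Subunits of the nuclear polymerases outside the 42 were counted in the same way, with no test between them. Of 9 other polymerase I subunits and factors 8 were higher and none was lower, with a median of 0.65, led by Twistnb at 1.12 and Taf1a at 0.90, and Taf1c at -0.18 did not pass. All 10 tested genes of the polymerase II list were higher with a median of 0.72, including Polr2f at 1.02 and Polr2c at 0.92. This median was 0.42 and 0.40 under the quantile scalings. Polr2e, Polr2f, Polr2h, Polr2k and Polr2l of that list encode subunits common to polymerases I, II and III. The polymerase III list leaves these shared subunits out, so the lists do not set polymerase II apart from polymerase III. Of 11 polymerase III subunits 4 were higher, 36.4% against the 36.1% of all tested genes, and 1 was lower, with a median of 0.16. Polr3k had a change of 0.53, and Polr3gl fell by 0.50 (SE 0.08, adjusted p = 0.00292, limma). Cytoplasmic ribosomal proteins, the structural products that the 42 factors assemble, were higher for 78 of 79 genes, with a median of 0.54, Rpl22 at 1.13 and Rpl5 at 0.88 the largest, and Rpl7a at -0.07 (adjusted p = 0.870) short of the threshold. Rpl7a changed by 0.32, 0.43 and 0.41 in animals 1 to 3 and by -1.43 in animal 4, whose RA-free array stood at 6.60 against 8.40 to 8.76 on the others, and without animal 4 it was called at 0.39 (adjusted p = 0.0227, limma). The median of the ribosomal proteins was 0.15 after quantile normalization, with 28 of the 79 called higher, and 0.16 with 36 called after normexp with quantile normalization, and 38 were called under spike-in scaling at a median of 0.69.

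**Figure D3:**
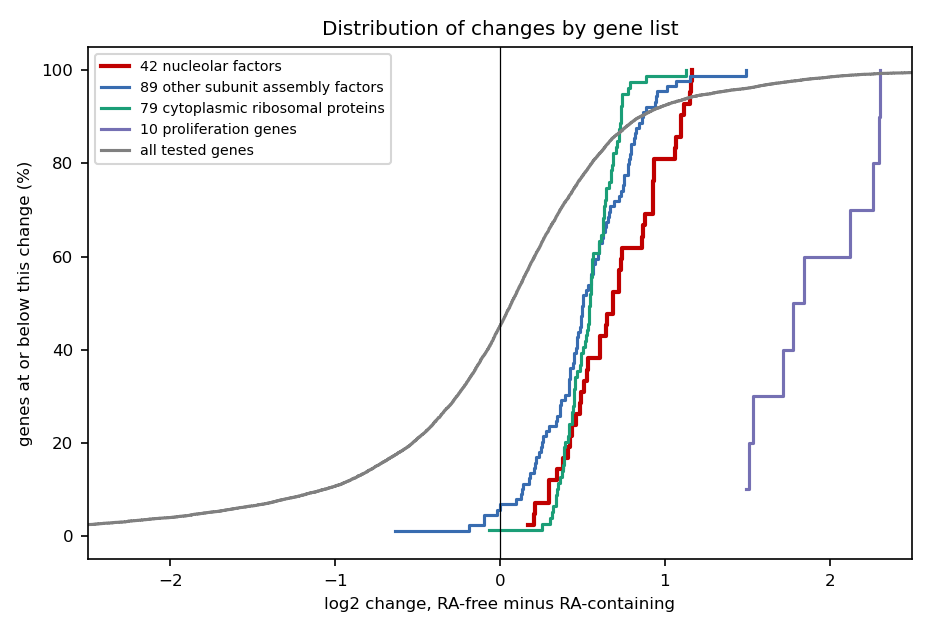
Cumulative share of genes, in percent, at or below each log2 change (RA-free minus RA-containing) for the 42 factors, 89 other subunit assembly factors, 79 cytoplasmic ribosomal proteins, 10 proliferation genes and all tested genes. The curve of the 42 factors crosses its middle at 0.69, that of the proliferation genes at 1.81 and that of all tested genes at 0.07.

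Other properties of the cultures moved with the media. All 10 proliferation markers were higher without RA, by 1.49 to 2.31 with a median of 1.81, and their summed linear level, in multiples of the 75th percentile, was 457 to 696 in RA-free and 133 to 204 in RA-containing spheres. All 14 sympathetic neuroblast markers were above background, with sums of 588 to 701 in RA-free and 529 to 645 in RA-containing spheres. Of these 14, 6 were higher and 4 were lower without RA. Their changes ran from -1.53 for Dbh to 3.59 for Th, so the similar sums do not show that single markers were at similar levels. Glial markers summed to 25.9 to 33.6 in RA-free and 48.3 to 55.8 in RA-containing spheres, with Erbb3 above background on no array, and immune markers to 14.9 to 17.1 in RA-free and 19.3 to 23.8 in RA-containing spheres, with Ptprc, Cd14 and Lyz2 above background on none. Of the tested markers, 4 of 9 glial and 3 of 5 immune ones were lower without RA and none was higher. Among all tested genes 28.2% were lower. Of the 3 immune ones, Aif1 and Adgre1 were above background on RA-containing arrays only. They were tested through the medium where they were higher, so their direction followed from the filter. Fibroblast markers summed to 9.51 to 13.9 in RA-free and 9.91 to 13.5 in RA-containing spheres, although 4 of the 7 tested were lower and 1, Col1a2, was higher, with a median change of -0.74. Dcn, 1 of the 4 lower, was likewise above background on RA-containing arrays only. Endothelial markers summed to 8.73 to 9.83 in RA-free and 8.49 to 10.7 in RA-containing spheres, and adrenal cortex markers to 0.697 to 0.828 in RA-free and 0.573 to 0.722 in RA-containing spheres. Lum, Pdgfra, Cdh5, Emcn, Tek, Cyp11a1, Cyp11b1, Hsd3b1 and Mc2r of these lists were above background on no array. The part of proliferation or of cell type makeup in the changes of the 42 genes was not tested, and in bulk spheres more cells of a type and more RNA per cell cannot be told apart.

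Neither of the mouse genes Mycn and Myc was called higher without RA. Mouse Mycn had a mean of 3.12 in RA-free and 3.29 in RA-containing spheres, a difference of -0.18 (SE 0.11, adjusted p = 0.198, limma) that passed after normexp with quantile normalization, at -0.29 with an adjusted p of 0.0211. The probe is for the mouse gene and need not detect the human transgene. Th, the mouse tyrosine hydroxylase gene, was higher without RA by 3.59 (SE 0.14, adjusted p = 5.34e-05, limma). Expression of the transgene was not tested. Myc signal exceeded background on 1 of the 4 RA-free and all 4 RA-containing arrays. Its fitted log2 change was -1.37 as reported (adjusted p = 0.0130, limma) and -0.23 under normexp with quantile normalization. The reported fit used RA-free values that were not above background. With RA-free values raised to the lowest level of any probe above background on the array, Myc was at least 1.5-fold lower without RA on the reported scale. That figure carries no test. Max, their partner, changed by 0.26 (SE 0.07, adjusted p = 0.0171).

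The size of the changes depended on how arrays were scaled. The median of the 42 was 0.69 as reported, 0.53 after normexp with quantile normalization, and 0.83 under spike-in scaling, which also moved the median of all tested genes to 0.22. Relative to the median of all tested genes the 42 stood 0.51 to 0.65 higher over all settings tried, and none of the 42 was called lower under any of them. Scalings that shift a whole array by a constant cannot alter this difference, which was 0.62 under each. It was 0.60 after quantile normalization and 0.53 after normexp with quantile normalization. The 0.51 came from keeping dim probes, which moved the median of all tested genes to 0.18.

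**Figure D4:**
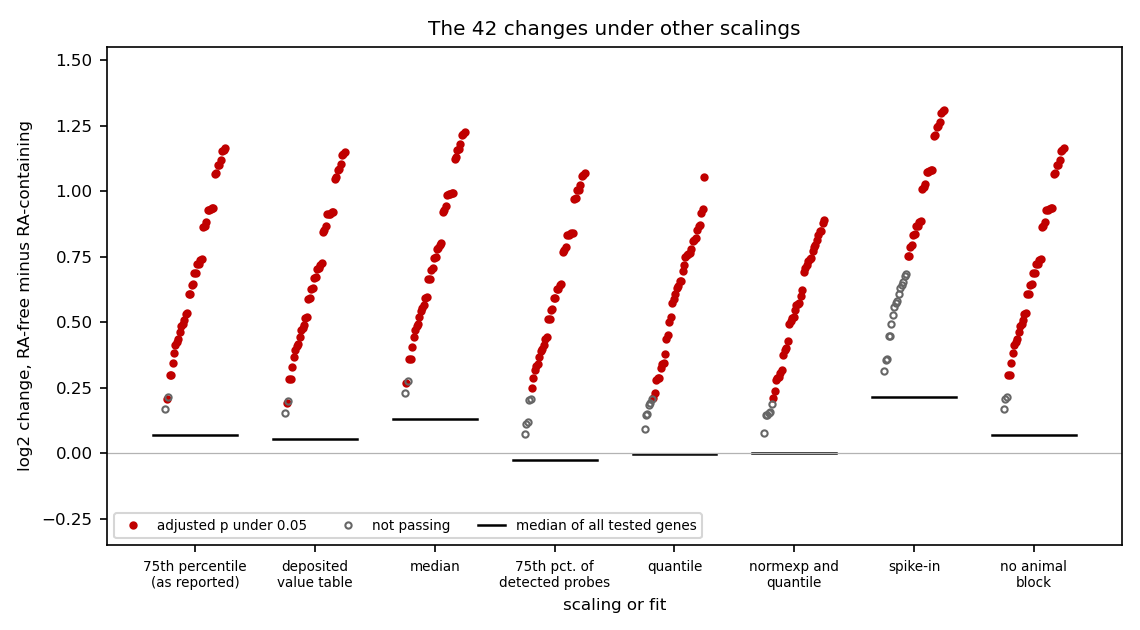
Log2 change, RA-free minus RA-containing, of each of the 42 genes under 7 scalings and without the animal block; filled points have an adjusted p under 0.05 in limma, open points do not, and bars are the median of all tested genes. Spike-in scaling leaves 26 genes past the threshold against 40 as reported, although its changes are the largest.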

How the data were processed

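Total RNA of the spheres was hybridised to 1-colour Agilent arrays. Per the file headers, the 8 arrays (design 028005) shared 1 slide and 1 scan, and the authors' intensities come from Agilent Feature Extraction 11.5.1.1; the processed intensity is background-subtracted and not scaled between arrays. The 2 arrays of an animal lay side by side on the slide, so animal and slide position cannot be told apart. Per the labels, 40 or 200 ng of RNA was labelled, an amount not tied to arrays.

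The deposited intensity was taken to log2 and each array's 75th percentile subtracted. Outlier spots were left out and no spot was saturated. Of 55681 probes, 27235 were named through a RefSeq table (GRCm38.p6) and 28446 were not. Genes needed a probe well above background on at least 4 of 8 arrays, and the probe with the highest mean was kept. RA-free minus RA-containing was tested two-sided in limma (version 3.58.1, R 4.3.3), blocking on the animal, and p-values were adjusted by Benjamini-Hochberg over all tested genes. The pairing comes from the series' description, since the cells of 1 ganglion were divided between media. Deviations of same-animal arrays correlated at 0.52, 0.30, 0.19 and 0.33. For RA-free arrays 1 to 4, the highest correlation with another animal's RA-containing array was -0.05, -0.07, 0.13 and -0.05. Animal 3 was thus the least distinct pair. The members, lists and naming rule were chosen with earlier results of these data known. Up to 2 genes of each pathway list called in each direction are named, by largest change, and some genes are not reported here. In log2 values simulated with the residual spread of the paired fit, 200 genes were given a change. Of these, 72% of changes of 1 and 30% of changes of 0.5 were recovered among 13539 genes. In the data 8705 genes were called, which sets another threshold, so these shares are not the recovery of the reported comparison.

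Alternatives were no block, other scalings, other filters, the mean over probes and leaving out each animal. The normexp setting used the median spot signal with offset 50, a mean signal not being used here. The authors' deposited log2 value table, centred per probe, had column medians of -0.07, 0.01, 0.17 and 0.20 for RA-free and -0.23, -0.22, 0.02 and -0.01 for RA-containing arrays; its exact scaling stays unknown. The 75th percentile of intensity was 235 to 294.9 on RA-free and 228.2 to 306.1 on RA-containing arrays, and 48.5% to 55.0% of spots on RA-free and 52.7% to 55.3% on RA-containing arrays were above background. The number of arrays limits the precision.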

Additional observations from a re-analysis of the deposited data

Results flagged for a closer look

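Of the 84 groups of 4 arrays formed by the 42 genes and the media, 4 held an array set apart from the other 3 by Dixon's criterion, and chance alone sets apart about 1 in 20 groups. RA-free array 1 was low for Nop56, at 6.59 against 7.22 to 7.27 on the other RA-free arrays, and for Pes1, at 4.42 against 4.85 to 4.89. RA-containing array 4 was low for Polr1a, at 2.22 against 2.38 to 2.40 on the other RA-containing arrays. RA-containing array 2 was high for Gar1, at 4.02 against 3.69 to 3.74. The Nop56, Pes1 and Gar1 calls held without the animal of that array, and Polr1a did not pass without animal 1, 2 or 4.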

How the results depend on the processing

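The 40 genes called higher became 39 with no replicate block for the animal pairing, 36 under quantile normalization and under normexp with quantile normalization, 37 with the 75th percentile taken over probes detected on all arrays, 39 where dim probes were kept, and 40 under the median scaling, the deposited value table, detection on all 8 arrays and the mean over probes. Under spike-in scaling 26 of the 42 and 4548 of all tested genes were called, against 8705 as reported and 8022 with no replicate block; the cause was not tested. Leaving out each animal gave 36 to 39 of the 42, 7350 to 8245 of all genes and medians of 0.64 to 0.72, with 3 animals fitted. Rrp12 lost its call in 9 of 14 alternatives, and Polr1a, Polr1b and Bms1 lost theirs without animal 1 and without animal 4, Polr1a also without animal 2. The change of 13 of the 42 moved by over 1.5 times, 10 of them under the quantile scalings, and Nop14, Ddx10 and Rrp12 under others. No change of the 42 turned its direction under any alternative. Signal over background does not limit the 42, which were above background on every array; for Myc it does.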

Other observations

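Genes that link nucleolar stress to p53 were a list of 10, of which 7 were higher and 1 lower without RA, with a median change of 0.57. Cdkn2a, whose locus encodes the nucleolar ARF protein, averaged 2.44 ± 0.36 in RA-free and 0.25 ± 0.51 in RA-containing spheres (SD, n = 4 each), a change of 2.19 (SE 0.22, adjusted p = 0.000552, limma). Aen, a nucleolar nuclease induced by p53, changed by 1.01 and Trp53 by 0.61. Among p53 targets Bax changed by 0.87 and Mdm2 by 0.27, Bbc3 fell by 0.83 (SE 0.12, adjusted p = 0.00182), and Cdkn1a at 0.13 (adjusted p = 0.458) and Sesn2 at -0.03 (adjusted p = 0.846) did not pass. Under spike-in scaling Bbc3 was at -0.68 and was not called.

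Animal 1 was most often the lowest of the animals in both media among the 42 genes. Its array was the lowest of its medium for 20 genes in RA-free spheres and for 17 in RA-containing spheres, and for 15 in both. Npm1, Nhp2, Nop58 and Nop10 were among the 15. It was the highest in both media for 5, which were Rrp9, Rrp12, Rrs1, Nop2 and Rrp1b. No other animal was lowest in both media for more than 5 genes. Animal 4 was the lowest for 16 genes in RA-free spheres and for 8 in RA-containing spheres. Animal 2 was the highest in both media for 7 genes. These counts carry no test.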
